A study of Mus musculus with 6 samples.

Results

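Club and secretory airway cells were taken from single-cell RNA sequencing of mouse lung, and 91 of 76800 barcodes kept as cells (0.118%) met the rule that defines them. A barcode was kept with at least 500 unique molecular identifiers (UMIs, each standing for 1 captured transcript), at least 300 genes and under 20% mitochondrial UMIs. A member cell drew at least 1% of its UMIs from Scgb1a1, Scgb3a1, Scgb3a2, Cyp2f2 and Bpifa1 together, with at least 3 of these 5 genes detected. It also had fewer than 4 of 8 alveolar type 2 genes (Abca3, Slc34a2, Lamp3, Napsa, Sftpb, Sftpa1, Cxcl15 and Etv5) and 0 UMIs of the leukocyte gene Ptprc, the endothelial gene Cdh5 and the fibroblast gene Col1a2. These 16 genes chose the cells, so their levels are given as a description with no test.

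The lungs came from 6 male C57BL/6J mice aged 12 weeks and were taken on day 3 after treatment. In the first group of 2 mice, SLC activation was carried out 7 times and lipopolysaccharide (LPS, the bacterial endotoxin sensed through Toll-like receptor 4) was given at 1 mg/kg, which is written SLC+LPS here. The second group of 2 mice received LPS at 1 mg/kg without activation, and the 2 control mice received PBS. The labels write the activation as SLC-Gq and the series title names the subcoeruleus nucleus, but the timing of the activations relative to LPS and the construct that delivered Gq are not given in the sources used here. A group with activation but without LPS was not analysed here. Digestion with enzymes and removal of dead cells preceded capture on the BD Rhapsody microwell system, and each mouse gave 1 library.

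Club cells are the secretory cells of the small airways. They release secretoglobins into the lining fluid, break down inhaled chemicals with cytochrome P450 and other detoxifying enzymes, and divide to renew themselves and the ciliated cells beside them. Goblet cells, serous cells and the submucosal glands of the larger airways add mucins and antimicrobial proteins such as Bpifa1 and lactoferrin.

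The libraries held 31589233 to 48641470 UMIs and 11608 to 13710 kept cells each, with 0 member barcodes shared between any 2 libraries. Member cells numbered 14 and 10 in SLC+LPS mice, 13 and 16 in LPS mice, and 17 and 21 in control mice. Their summed UMIs were 16537 and 31088 in SLC+LPS mice, 17965 and 105258 in LPS mice, and 40015 and 44821 in control mice. LPS library 2 stood apart, with a median of 6036 UMIs per member cell, against medians of 1010.5 to 1834.5 in the other 5 libraries. Its member cells alone gave more UMIs than those of the other LPS library and both SLC+LPS libraries together. Median mitochondrial UMIs of member cells were 17.2% and 9.23% in SLC+LPS mice, 9.88% and 12.4% in LPS mice, and 16.6% and 4.43% in control mice.

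The label was checked against markers that the rule did not use. Cbr2, a carbonyl reductase abundant in club cells, was detected in 81 of the 91 cells (89.0%), and Aldh1a1, a retinaldehyde dehydrogenase, in 76 (83.5%). The receptor gene Cckar was found in 34 cells, the glutathione transferase gene Gsta3 in 34 and the pan-epithelial gene Epcam in 31. Other genes of the same lists were found less often. Among the further club markers, Nupr1 was found in 12 cells, Aox3 and Cyp2a5 in 9 each and Kcne1 in 0. Among the pan-epithelial markers, Krt8 was found in 17 cells, Krt19 in 15, Krt18 in 13, Cldn7 in 10 and Cldn3 in 6. Sftpc, the defining surfactant gene of alveolar type 2 cells, was at or under 2 UMIs in every member cell and at 0 in 81. Other genes that alveolar type 2 cells express strongly were found more often, Sftpa1 in 52 cells, Cxcl15 in 40 and Lyz2 in 70. Sftpa1 and Cxcl15 belong to the rule, which limits how many such genes a member may show. Lyz2 also stands in the macrophage and monocyte marker list. Markers of basal, tuft and neuroendocrine cells were at or near 0. The 5 basal genes had 6 UMIs in control library 2, 3 in SLC+LPS library 1 and 0 elsewhere, all from Krt15 and Krt17, with Krt5, Krt14 and Trp63 at 0. The 6 tuft genes had 3 UMIs in LPS library 2 (Dclk1 in 2 cells and Pou2f3 in 1) and the 6 neuroendocrine genes had 1 UMI in control library 2 (Calca). The goblet cell factors Spdef and Foxa3 were also at 0, while Muc5b was found in 5 cells and Muc5ac in 1. Other genes of the goblet list were present, with Tff2 in 14 cells, Agr2 in 9 and Gp2 in 5. The 7 goblet genes had 28 and 24 UMIs in SLC+LPS mice, 0 and 81 in LPS mice, and 0 and 40 in control mice.

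Not all 91 cells carried a clean airway profile. In 28 of them the UMIs of neutrophil, macrophage and monocyte, lymphocyte and endothelial markers together exceeded those of the pan-epithelial and further club markers. These 28 cells drew a median of 2.57% of their UMIs from the 5 club genes, against 11.3% in the other 63. They numbered 5 and 5 in SLC+LPS mice, 7 and 0 in LPS mice, and 3 and 8 in control mice. At least 4 of 8 ciliated cell genes were held by 12 cells, 6 of them in control library 1, with a median of 8591 UMIs per cell. Of these 12 cells, 1 was also among the 28. RNA free in solution was gauged from barcodes under 100 UMIs. Its amount was estimated from neutrophil, lymphocyte, endothelial, fibroblast (Gsn among them) and erythroid markers. By these, such RNA could be 53.4% and 26.6% of member UMIs in SLC+LPS mice, 45.2% and 2.60% in LPS mice, and 33.2% and 63.8% in control mice. Macrophage and monocyte markers were not used. They took 0.677% and 1.22% of member UMIs in SLC+LPS mice, 0.495% and 0.0190% in LPS mice, and 0.1325% and 0.361% in control mice. In barcodes under 100 UMIs they took, in the same order, 2.14% and 1.53%, 1.39% and 0.935%, and 0.601% and 0.717%. For SLC+LPS library 2 the estimate is thus no upper limit. The part of free RNA in the results below was tested only by subtraction, given beside the gene calls.

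The rule was strict at the alveolar boundary. A further 16 kept cells met every part of it except that 4 or more alveolar type 2 genes were detected, 2 and 0 in SLC+LPS mice, 4 and 10 in LPS mice, and 0 and 0 in control mice. These cells were deep, with a median of 10267.5 UMIs, and drew between 7.13% and 25.95% of them from the 5 club genes. Sftpc was at 0 in 11 of the 16 and at no more than 1 UMI in the others. Another 83 kept cells failed only through UMIs of Ptprc, Cdh5 or Col1a2. Next to the 1% limit, the nearest cells inside held 1.04%, 1.06% and 1.09% club-gene UMIs and the nearest outside 0.976%, 0.962% and 0.917%. Of the 91 members, 31 lay under 5% and 15 under 2%, as the plot of club-gene shares shows.

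**Figure D1:**
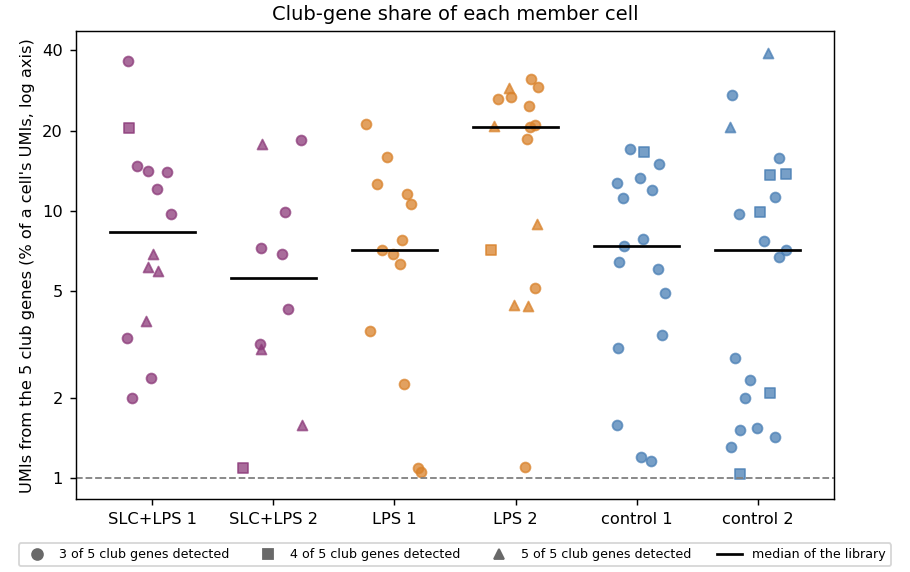
Share of each member cell's UMIs that came from the 5 club genes (log axis), by library; point shape gives how many of the 5 genes were detected, the black bar is the library's median and the dashed line is the 1% limit of the rule. LPS library 2 has the highest median (20.7%), and the other 5 medians lie between 5.61% and 8.35%.

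Scgb1a1, the club cell secretoglobin, was detected in all 91 cells and was the leading club gene by UMIs in 77. It took 7.21% and 3.45% of member UMIs in SLC+LPS mice, 5.39% and 10.4% in LPS mice, and 6.16% and 4.76% in control mice. The 3 groups overlapped. Scgb3a2, a secretoglobin of the bronchiolar epithelium, was detected in 90 cells and took 2.94% and 0.988% of UMIs in SLC+LPS mice, 0.824% and 1.94% in LPS mice, and 0.907% and 4.31% in control mice. Cyp2f2, the cytochrome P450 that activates naphthalene in mouse club cells, was found in 86 cells. It took 0.520% and 0.354% in SLC+LPS mice, 0.278% and 0.335% in LPS mice, and 0.522% and 0.540% in control mice. Both LPS values lay below the other 4, which is a description only, since the gene served to choose the cells.

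Bpifa1, an antimicrobial protein of upper airway secretory cells, and Scgb3a1, a secretoglobin of the larger airways, were detected in 21 and 22 member cells. In 15 cells both were found, 4 and 3 of them in SLC+LPS mice, 0 and 6 in LPS mice, and 0 and 2 in control mice. This subset differed from the other 76 members in genes outside the rule, which is reported as a description because the subset was chosen from the same cells. Reg3g, an antimicrobial lectin, stood at 9731 CPM (UMIs scaled to a common library total) in the 15 cells, against 68.6 CPM in the other 76. Tff2, a trefoil peptide of mucus-secreting cells, stood at 1780 CPM in the 15 cells and 26.4 CPM in the others. Ltf (lactoferrin) and Gp2 were seen only among the 15 cells, with 19 and 12 UMIs. The 76 other cells had 0 UMIs of either gene. Pigr, the receptor that carries immunoglobulin A across epithelium, stood at 1584 CPM in the 15 cells, against 253 CPM in the others. The order turned round for Scgb1a1 and Cbr2. Scgb1a1 stood at 47160 CPM in the 15 cells and 82750 CPM in the others, and Cbr2 at 2354 CPM and 4171 CPM. The labels do not say how much of the large and the small airways entered each digest.

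Outside the rule, the genes that stood out most from other kept cells were ranked by the ratio of mean CPM in member cells to that in the other kept cells. Sprr1a, a cornified envelope gene, had the highest ratio (256), but all its 135 UMIs came from 5 cells of LPS library 2, 1 of which gave 62.2% of them. Deup1, which builds centrioles in cells that become multiciliated, was at 0 and 129 CPM in SLC+LPS mice, 167 and 713 CPM in LPS mice, and 0 CPM in both control mice. In LPS library 2, 75 UMIs came from 5 cells. Sult1d1, a sulfotransferase, had a ratio of 153 and stood at 484 and 64.3 CPM in SLC+LPS mice, 0 and 162 CPM in LPS mice, and 150 and 379 CPM in control mice.

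Whether the number of these cells differed after treatment was described by their share of kept cells. Member cells made up 0.104% (exact 95% binomial interval 0.0570% to 0.175%) and 0.0773% (0.0371% to 0.142%) of kept cells in SLC+LPS mice. In LPS mice they made up 0.0948% (0.0505% to 0.162%) and 0.138% (0.0788% to 0.224%), and in control mice 0.134% (0.0782% to 0.215%) and 0.169% (0.104% to 0.258%). These intervals reflect how few cells were counted and say nothing of how mice vary. The group means were 0.0908 ± 0.0191% in SLC+LPS mice, 0.116 ± 0.0304% in LPS mice and 0.151 ± 0.0245% in control mice (SD, n = 2 libraries each). An exact two-sided permutation test of 2 against 2 libraries cannot give a p below 0.333. It gave 0.333 for SLC+LPS against control and 0.667 for both other pairs, so no difference was detectable. A share of all kept cells also depends on how many other cells each library holds. Among kept cells with 0 Ptprc UMIs the means were 0.177 ± 0.0483% in SLC+LPS mice, 0.364 ± 0.198% in LPS mice and 0.317 ± 0.0173% in control mice. Fewer cells of this kind and fewer of them surviving digestion cannot be told apart.

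The mitochondrial limit weighed unequally on the groups. Barcodes above it that met the gene part of the rule numbered 9 and 6 in SLC+LPS mice, 1 and 7 in LPS mice, and 22 and 41 in control mice. With these barcodes counted, the share was 0.145 ± 0.0320% in SLC+LPS mice, 0.147 ± 0.0678% in LPS mice and 0.371 ± 0.132% in control mice (SD, n = 2). Both control values were then above all 4 others, with an exact permutation p of 0.333 against either group, the smallest possible. Median mitochondrial UMIs over all kept cells were also higher in control libraries (8.82% and 7.99%) than in the 4 other libraries (1.23% to 2.86%).

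**Figure D2:**
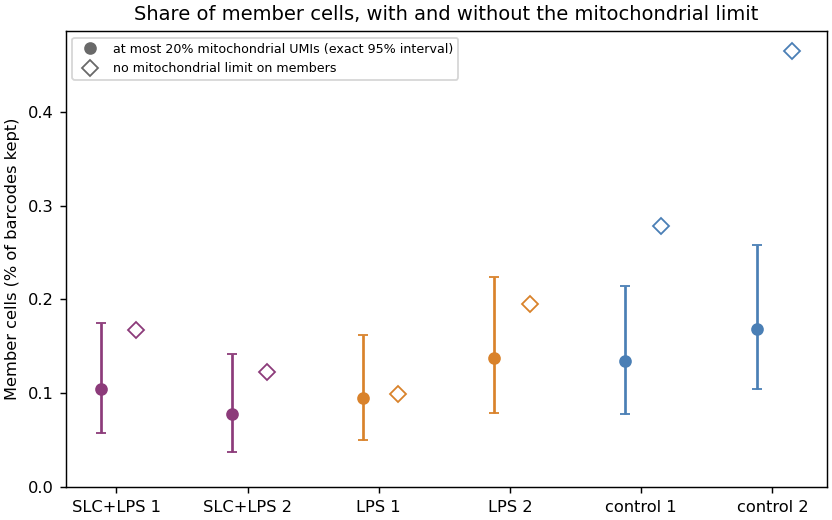
Member cells as a percent of kept barcodes in each library, with the 20% mitochondrial limit (filled circles, exact 95% binomial intervals) and without it (open diamonds, barcodes above the limit added to both counts). Without the limit the control libraries reach 0.278% and 0.465%, and the other 4 lie between 0.0994% and 0.195%.

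Gene levels were compared on UMI counts summed over the member cells of each library, with edgeR's quasi-likelihood F test and Benjamini-Hochberg adjustment over the 624 genes that passed a filter on low counts. A gene passed at adjusted p under 0.05. With 2 mice a group, these p-values speak for the spread between these mice. LPS against control asks how member cells responded to endotoxin, and 3 of 624 genes passed (0.481% of genes tested), 2 higher (0.321%) and 1 lower (0.16%). At an unadjusted p under 0.05 there were 26 (4.17%). Chil1 and Retnla were higher after LPS and Gsn was lower.

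Chil1, a chitinase-like secreted protein, stood at 1503 and 884 CPM in LPS mice, against 74.97 and 44.6 CPM in control mice. SLC+LPS mice had 1875 and 1029 CPM. All 4 libraries given LPS were above both controls. The means were 1452 ± 598 CPM in SLC+LPS mice, 1193 ± 438 CPM in LPS mice and 59.8 ± 21.5 CPM in control mice (SD, n = 2). The log2 fold change of LPS against control was 4.16 (SE 0.72, adjusted p = 0.0423). The rise was spread over cells, with a Chil1 UMI in 12 of 14 and 5 of 10 member cells of SLC+LPS mice, 10 of 13 and 11 of 16 of LPS mice, and 2 of 17 and 2 of 21 of control mice. Barcodes under 100 UMIs held 286 and 208 CPM in SLC+LPS mice, 290 and 201 CPM in LPS mice, and 54.1 and 69.5 CPM in control mice. Alveolar type 2 cells of the same libraries held more Chil1, with 12880 and 6821 CPM in SLC+LPS mice, 7875 and 4692 CPM in LPS mice, and 2016 and 2344 CPM in control mice. A list of 8 alveolar type 2 genes took 0.466% and 0.296% of member UMIs in SLC+LPS mice, 0.351% and 0.325% in LPS mice, and 0.0550% and 0.266% in control mice, so it was higher in all 4 libraries given LPS. That list holds Chil1 itself and the rule's gene Sftpa1. Its other 6 genes, Sftpc among them, took 0.0242% and 0.0322% in SLC+LPS mice, 0.0334% and 0.0143% in LPS mice, and 0.0125% and 0.0312% in control mice, where the groups overlapped. Of these 6 genes, 4 and 3 were at 0 in SLC+LPS mice, 3 and 4 in LPS mice, and 3 and 1 in control mice. The part of alveolar type 2 RNA in the Chil1 result was not tested further.

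The Chil1 call for LPS against control was kept under 11 of 19 other settings and lost under 8, with log2 fold changes of 3.54 to 5.53 throughout. Without control library 1 the adjusted p was 0.283 and without control library 2 it was 0.0741. It was 0.0517 with the deep cells at the alveolar boundary added, 0.0511 with RLE size factors and 0.0599 with only the groups compared.

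Retnla, a secreted resistin-like protein induced in allergic and helminth-infected mouse lung, stood at 20760 and 3933 CPM in LPS mice, against 325 and 379 CPM in control mice. SLC+LPS mice had 2721 and 7977 CPM. The group means were 5349 ± 3717 CPM in SLC+LPS mice, 12350 ± 11900 CPM in LPS mice and 352 ± 38.5 CPM in control mice (SD, n = 2). The 2 LPS libraries thus differed widely from each other, while both lay above the controls. The log2 fold change of LPS against control was 4.95 (SE 0.91, adjusted p = 0.0447). A Retnla UMI was found in 7 of 14 and 8 of 10 member cells of SLC+LPS mice, 12 of 13 and 13 of 16 of LPS mice, and 5 of 17 and 6 of 21 of control mice. Barcodes under 100 UMIs held only 81.3 and 52.0 CPM in SLC+LPS mice, 186 and 132 CPM in LPS mice, and 33.6 and 81.2 CPM in control mice. Without control library 1 the adjusted p was 0.515 and without control library 2 it was 0.0741, with log2 fold changes of 4.82 and 4.98. The 16 deep cells left out at the alveolar boundary also carried Retnla, in 15 of 16 cells and at 37460 CPM.

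Gsn, the actin-severing protein gelsolin, stood at 111 and 66.5 CPM in LPS mice, against 1300 and 1606 CPM in control mice. SLC+LPS mice had 363 and 354 CPM. The log2 fold change of LPS against control was −4.14 (SE 0.67, adjusted p = 0.0423), and without control library 1 the adjusted p was 0.199. Free RNA was likewise highest in control mice, at 1725 and 1943 CPM in barcodes under 100 UMIs. It stood at 403 and 185 CPM in SLC+LPS mice and at 347 and 220 CPM in LPS mice, which overlapped. The fibroblast marker list, 8 genes of a cell type that expresses Gsn strongly, took 0.169% and 0.148% of member UMIs in SLC+LPS mice, 0.122% and 0.0200% in LPS mice, and 0.340% and 0.446% in control mice. Of its 8 genes, 3 and 2 were at 0 in SLC+LPS mice, 2 and 3 in LPS mice, and 0 in both control mice. That list holds Gsn itself. Gsn gave 6 of 28 and 11 of 46 list UMIs in SLC+LPS mice and 2 of 22 and 7 of 21 in LPS mice. In control mice it gave 52 of 136 and 72 of 200. The part of fibroblast RNA in the Gsn result was not tested on its own. With the estimated free RNA subtracted from every library, the log2 fold changes of Chil1, Retnla and Gsn were 5.20, 4.97 and −3.80, and none of the 413 genes then tested passed.

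Both groups given LPS were also set against control in 1 contrast of 4 against 2 libraries. It shares every library with the other comparisons and is no separate evidence. Again 3 of 624 genes passed (0.481%), 1 higher (0.16%) and 2 lower (0.321%), and 27 (4.33%) had an unadjusted p under 0.05. Chil1 passed (log2 fold change 4.26, SE 0.69, adjusted p = 0.0228) and so did Gsn (−3.15, SE 0.50, adjusted p = 0.0228). Retnla did not (4.36, SE 0.85, adjusted p = 0.0545). Without control library 1 the adjusted p of Chil1 and of Gsn was 0.181.

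Areg, the epidermal growth factor receptor ligand amphiregulin, was the other gene that passed in this contrast and was lower after LPS. It stood at 60.5 and 0 CPM in SLC+LPS mice, 0 and 19.0 CPM in LPS mice, and 999.6 and 357 CPM in control mice. As UMIs that is 3 in the 4 libraries given LPS, against 56 in the 2 control libraries, a ratio of 0.0266 with a counting interval of 0.00533 to 0.0818. The log2 fold change was −5.06 (SE 0.88, adjusted p = 0.0271). The UMIs came from 8 of 17 and 4 of 21 control member cells, and 1 cell gave 55.0% of them in control library 1 and 62.5% in control library 2. The leading cell of control library 1 held 22 Areg UMIs, and no member cell drew over 0.381% of its UMIs from Areg. In that library only cells of 8750 to 9226 UMIs were deep enough for this, and they held 7 or 8 of 8 ciliated cell genes. With ciliated members or top doublet scores left out, Areg was not among the genes tested. Without control library 1 the log2 fold change was −4.08 and the adjusted p 1.00, and with the deep cells at the alveolar boundary added the adjusted p was 0.989. Barcodes under 100 UMIs held 47.3 to 63.8 CPM of Areg in all 6 libraries. With free RNA subtracted, the log2 fold change of Areg was −5.07 and the adjusted p 0.188.

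**Figure D3:**
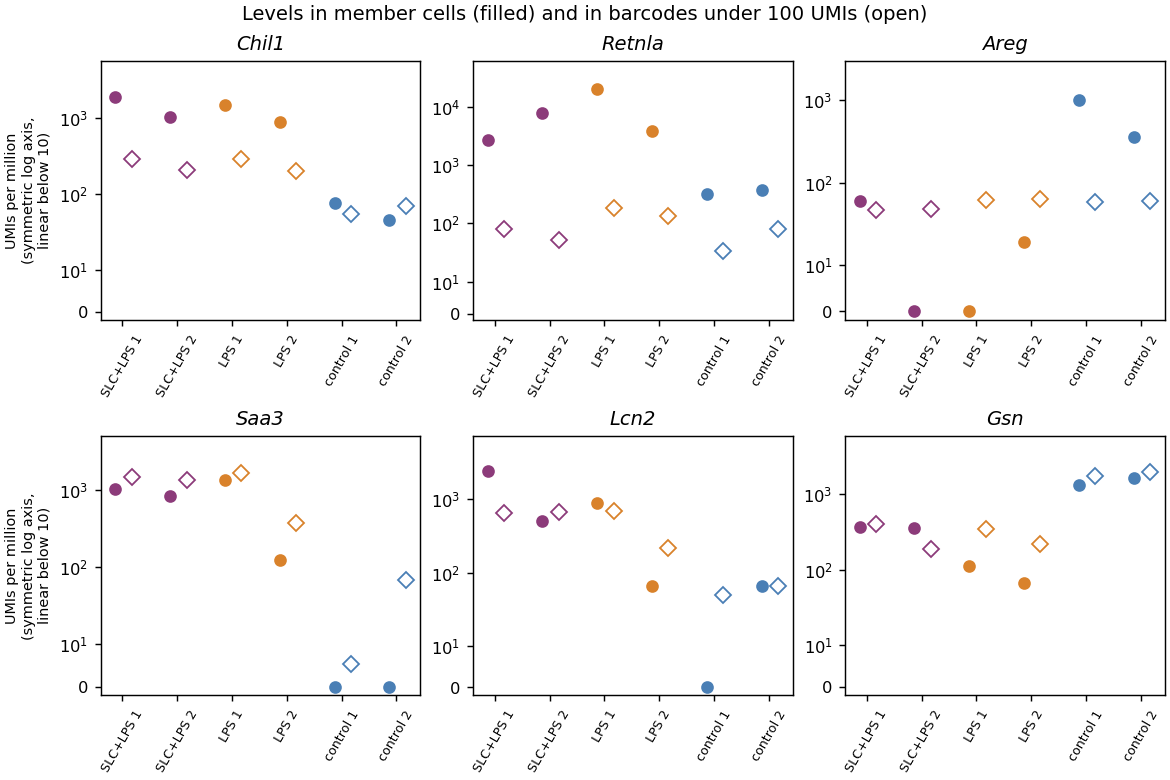
CPM of 6 genes in the summed member cells (filled circles) and in barcodes under 100 UMIs, which hold free RNA (open diamonds), by library on a symmetric log axis that is linear below 10. Retnla and Chil1 lie above the free RNA in all 4 libraries given LPS and Areg in both control libraries, whereas Saa3 in member cells lies below the free RNA in the 4 libraries given LPS and Gsn in 5 of 6 libraries.

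The promoters of Chil1, Retnla and Areg are shown because these are the called genes whose levels in member cells stood clear of the free RNA. Each run is the 250 bases before the RefSeq transcription start in build GRCm38.p6, read on the plus strand, with matches to 5 motifs in capitals. The motifs were the C/EBP core TTGCNNAA, the STAT motif TTCNNNGAA, its longer form with TTC and GAA 4 bases apart, the cAMP response element TGACGTCA and the TATA box TATAAA, searched on both strands.
Chil1, chr1:134181906-134182155: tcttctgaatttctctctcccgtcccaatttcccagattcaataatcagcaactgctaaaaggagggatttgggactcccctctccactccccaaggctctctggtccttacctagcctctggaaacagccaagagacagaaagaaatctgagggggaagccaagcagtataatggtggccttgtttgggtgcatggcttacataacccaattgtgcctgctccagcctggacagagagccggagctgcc
Retnla, chr16:48842359-48842608: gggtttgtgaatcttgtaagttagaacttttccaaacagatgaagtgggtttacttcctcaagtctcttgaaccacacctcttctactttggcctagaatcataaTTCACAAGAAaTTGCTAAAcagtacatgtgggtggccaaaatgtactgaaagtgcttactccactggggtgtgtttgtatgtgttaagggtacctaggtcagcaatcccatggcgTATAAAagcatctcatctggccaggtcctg
Areg, chr5:91139349-91139598: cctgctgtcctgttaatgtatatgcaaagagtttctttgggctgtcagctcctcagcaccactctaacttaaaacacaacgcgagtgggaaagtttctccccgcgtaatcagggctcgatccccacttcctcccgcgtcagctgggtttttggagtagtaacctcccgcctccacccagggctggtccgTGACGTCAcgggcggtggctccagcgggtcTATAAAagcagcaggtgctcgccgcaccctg

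The Retnla promoter held 1 STAT match with the spacing of 4 bases (positions 145 to 136 before the start), followed by 1 C/EBP core match (134 to 127) and a TATA match (30 to 25). The Areg promoter held a cAMP response element (61 to 54) and a TATA match (31 to 26). None of the 5 motifs was found in the Chil1 window. Over all 32851 promoters of the same length, the C/EBP core was in 9.56%, the STAT motifs in 7.02% (spacing of 3) and 5.85% (spacing of 4), the cAMP response element in 1.55% and TATAAA in 12.4%. The matches are letters in a window and not shown to be bound sites.

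Acute-phase genes had fold changes above 0 after LPS, but none passed. Of 15 acute-phase genes, 5 passed the filter on low counts and 0 passed the test for both LPS-given groups against control. All 5 fold changes were above 0 with a median log2 of 1.41, against −0.039 over all 624 genes. Saa3, a serum amyloid made in inflamed epithelium and macrophages, stood at 1028 and 836 CPM in SLC+LPS mice, 1336 and 124 CPM in LPS mice, and 0 CPM in both control mice. With a floor of 3 UMIs over the control group it was at least 13.2-fold higher (adjusted p = 0.213). Barcodes under 100 UMIs held as much or more, with 1466 and 1328 CPM in SLC+LPS mice, 1666 and 368 CPM in LPS mice, and 5.41 and 68.0 CPM in control mice. Lcn2, the iron-binding lipocalin, stood at 2419 and 515 CPM in SLC+LPS mice, 891 and 66.5 CPM in LPS mice, and 0 and 66.9 CPM in control mice (log2 fold change 4.22, SE 1.53, adjusted p = 0.898). The second LPS library was level with the second control library for Lcn2.

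Of 25 secreted and defence genes, 22 had a UMI in member cells, 7 were tested, 1 passed (Chil1, higher) and 6 were above 0, with a median log2 fold change of 1.96. Over all 624 genes tested 3 passed (0.481%), 297 were above 0 and 327 below, with a median of −0.039. Pigr stood at 1209 and 1029 CPM in SLC+LPS mice, 390 and 817 CPM in LPS mice, and 24.99 and 156 CPM in control mice. The 4 libraries given LPS did not overlap the controls (log2 fold change 3.10, SE 0.79, adjusted p = 0.214). Control mice held only 1 and 7 Pigr UMIs, and LPS library 1 held 7, of which 1 cell gave 5. The 15 cells with both Scgb3a1 and Bpifa1 gave 105 Pigr UMIs and the other members 48. These 15 cells numbered 4 and 3 in SLC+LPS mice, 0 and 6 in LPS mice, and 0 and 2 in control mice. Their part in the Pigr values was not tested. Reg3g stood at 5321 and 7752 CPM in SLC+LPS mice, 0 and 2736 CPM in LPS mice, and 24.99 and 892 CPM in control mice (2.75, SE 1.83, adjusted p = 0.987). Cells with both Scgb3a1 and Bpifa1 numbered 0 in LPS library 1 and in control library 1, the libraries with the least Reg3g. Without LPS library 2 the log2 fold change was −1.62. In SLC+LPS library 2, 1 cell gave 78.4% of the Reg3g UMIs.

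Detoxifying enzymes carry out a defining function of club cells, and none passed. Of 28 genes on this list, 17 were tested. For both LPS-given groups against control 4 were above 0 and 13 below, with a median log2 fold change of −0.483, against 297 above, 327 below and a median of −0.039 over all 624 genes. Aldh1a1 stood at 2963 and 3828 CPM in SLC+LPS mice, 1392 and 3515 CPM in LPS mice, and 7222 and 6002 CPM in control mice. The 4 libraries given LPS lay below both controls (log2 fold change −1.26, SE 0.54, adjusted p = 0.982). Cyp2a5, a P450 of the airway and nasal epithelium, stood at 302 and 0 CPM in SLC+LPS mice, 0 CPM in both LPS mice, and 475 and 513 CPM in control mice (−4.75, SE 1.29, adjusted p = 0.306). In control library 2, 1 cell gave 95.7% of the Cyp2a5 UMIs. Cyp4b1 stood at 60.5 and 129 CPM in SLC+LPS mice, 111 and 409 CPM in LPS mice, and 625 and 446 CPM in control mice (−1.68, SE 0.66, adjusted p = 0.898). Gstm1, a glutathione transferase, stood at 605 and 257 CPM in SLC+LPS mice, 445 and 171 CPM in LPS mice, and 950 and 692 CPM in control mice (−1.39, SE 0.58, adjusted p = 0.982).

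For both LPS-given groups against control, 6 of 18 genes of repair and epithelial transition were tested, and 3 of the 6 were above 0. Areg alone passed, lower. Over all 624 genes tested in this contrast, 3 passed (0.481%), 297 were above 0 and 327 below, with a median log2 fold change of −0.039. Immediate-early and heat-shock genes, which digestion of tissue also induces, had 17 of 19 tested and 0 passing, 3 above 0 and 14 below (median log2 −0.51). Atf3, a stress-induced transcription factor, stood at 242 and 257 CPM in SLC+LPS mice, 111 and 580 CPM in LPS mice, and 1225 and 826 CPM in control mice (−1.78, SE 0.64, adjusted p = 0.748). Hspa1a, an inducible heat-shock protein, stood at 1330 and 1351 CPM in SLC+LPS mice, 612 and 1093 CPM in LPS mice, and 400 and 312 CPM in control mice (1.51, SE 0.56, adjusted p = 0.765). All 7 tested genes of the secretory stress list were below 0 and 0 passed.

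The remaining lists also had 0 genes passing in the contrast of both LPS-given groups against control. Tested genes numbered 2 of 20 airway transcription factors, 5 of 19 junction and keratin genes, 3 of 19 ion transport genes, 6 of 25 chemokines and cytokines, 6 of 14 NF-kB feedback genes, 8 of 21 antigen presentation genes, 3 of 20 cell cycle genes and 2 of 16 hypoxia and glycolysis genes. None of 26 interferon-induced genes and none of 14 adrenergic and glucocorticoid genes reached the count filter. All 26 interferon genes and 13 of the 14 others had at least 1 UMI in member cells, so their response was not detectable at this depth.

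SLC+LPS against LPS bears on the activation itself, since both groups received LPS. In edgeR 0 of 624 genes passed (0%) and 20 (3.21%) had an unadjusted p under 0.05, and DESeq2 also called 0. The gene with the smallest p was Errfi1, a feedback inhibitor of the epidermal growth factor receptor, with 121 and 32.2 CPM in SLC+LPS mice, against 334 and 1682 CPM in LPS mice (log2 fold change −4.13, SE 1.07, adjusted p = 1.00). Klf6, an immediate-early transcription factor, had 726 and 579 CPM in SLC+LPS mice and 1280 and 4256 CPM in LPS mice (−2.31, SE 0.74, adjusted p = 1.00). Igfbp7 had 665 and 193 CPM in SLC+LPS mice and 111 and 9.50 CPM in LPS mice (3.42, SE 1.09, adjusted p = 1.00). Hspb1, a small heat-shock protein, had 242 and 836 CPM in SLC+LPS mice and 111 and 66.5 CPM in LPS mice (2.63, SE 0.91, adjusted p = 1.00). Gsn was the fifth gene by p, at 363 and 354 CPM in SLC+LPS mice and 111 and 66.5 CPM in LPS mice (1.97, SE 0.69, adjusted p = 1.00).

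This count moved when single libraries were left out. Without LPS library 2, 1 gene passed, as without SLC+LPS library 1, and without LPS library 1, which leaves the deep library alone in its group and assumes it varies like the others, 46 did. LPS library 2 had 0.0342% of member UMIs in neutrophil markers and 0.0190% in macrophage and monocyte markers, with 5 of 10 and 7 of 11 genes at 0. In SLC+LPS mice these lists took 0.792% and 0.199%, and 0.677% and 1.22%, with 3 and 3 of 10 and 7 and 4 of 11 genes at 0. In LPS library 1 they took 0.668% and 0.495%, with 2 of 10 and 5 of 11 genes at 0. Their part in the count was not tested.

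SLC+LPS against control gave 0 of 624 genes (0%) in edgeR and 24 (3.85%) at an unadjusted p under 0.05, and DESeq2 called 4. The smallest p values were those of Chil1 (log2 fold change 4.37, SE 0.73, adjusted p = 0.0595), Retnla (3.76, SE 0.87, adjusted p = 0.253), Saa3, Areg and Pigr, whose levels stand above. Both comparisons with control share the control libraries, so the values of a gene in them are not independent.

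Whether the LPS response of member cells differed from that of another epithelial cell was tested against 246 alveolar type 2 cells of the same libraries, with the library as a block. They numbered 40 and 13 in SLC+LPS mice, 24 and 79 in LPS mice, and 19 and 71 in control mice. Alveolar type 2 cells were kept cells with at least 4 of the 8 alveolar type 2 genes and none of the 3 excluded lineage genes. In LPS against control the response differed in 10 of 1663 genes (0.601%), and in both LPS-given groups against control in 4 (0.241%). The response of member cells was the lower in each of these 10 and 4 genes. At an unadjusted p under 0.05 there were 81 (4.87%) and 96 (5.77%).

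Ly6c1, a surface protein of the Ly6 family, stood in member cells at 60.5 and 96.5 CPM in SLC+LPS mice, 111 and 28.5 CPM in LPS mice, and 1874 and 223 CPM in control mice. In alveolar type 2 cells it stood at 303 and 2729 CPM in SLC+LPS mice, 977 and 334 CPM in LPS mice, and 248 and 249 CPM in control mice. The difference of the 2 log2 fold changes over both LPS-given groups was −5.35 (SE 0.81, adjusted p = 0.000480). Cp, the copper-carrying acute-phase protein ceruloplasmin, stood in member cells at 907 and 772 CPM in SLC+LPS mice, 1280 and 1036 CPM in LPS mice, and 350 and 513 CPM in control mice. In alveolar type 2 cells it stood at 321 and 205 CPM in SLC+LPS mice, 1015 and 468 CPM in LPS mice, and 15.5 and 5.41 CPM in control mice. The difference of the log2 fold changes was −4.44 (SE 0.86, adjusted p = 0.0132). Member cells thus held more Cp in each of the 6 libraries, and the LPS-given libraries of both cell kinds lay above their controls. Areg (−5.12, SE 1.08, adjusted p = 0.0221) and Thbs1, the matrix protein thrombospondin 1 (−2.99, SE 0.59, adjusted p = 0.0132), were the other 2. Single control libraries decided 3 of the 4 calls. Without control library 1 the adjusted p was 0.313 for Areg and 0.320 for Thbs1, and without control library 2 it was 0.679 for Cp. For LPS against control, the Ly6c1 call also hung on control library 1. Member cells held 1874 CPM of Ly6c1 there, against 223 CPM in control library 2. Without the library block none of the 1663 genes passed in either contrast.

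The alveolar type 2 set was itself uneven, since it took in the 16 deep cells with club genes. Its Scgb1a1 stood at 15040 and 136 CPM in SLC+LPS mice, 28950 and 59490 CPM in LPS mice, and 5985 and 1776 CPM in control mice. With the set held to 226 cells under 1% club genes, an alternative added after the values were seen, 1 gene passed in each contrast, Ly6c1. In that set Retnla stood at 65.6 and 17.1 CPM in SLC+LPS mice, 62.5 and 33.2 CPM in LPS mice, and 0 and 162 CPM in control mice, which is below the member cells in every library. The difference in Retnla response for LPS against control was −2.75 (adjusted p = 1.00) with the full set and 5.34 (adjusted p = 0.0840) with the held set. For Chil1 it was 2.61 (SE 0.85, adjusted p = 0.292) with the full set.

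**Figure D4:**
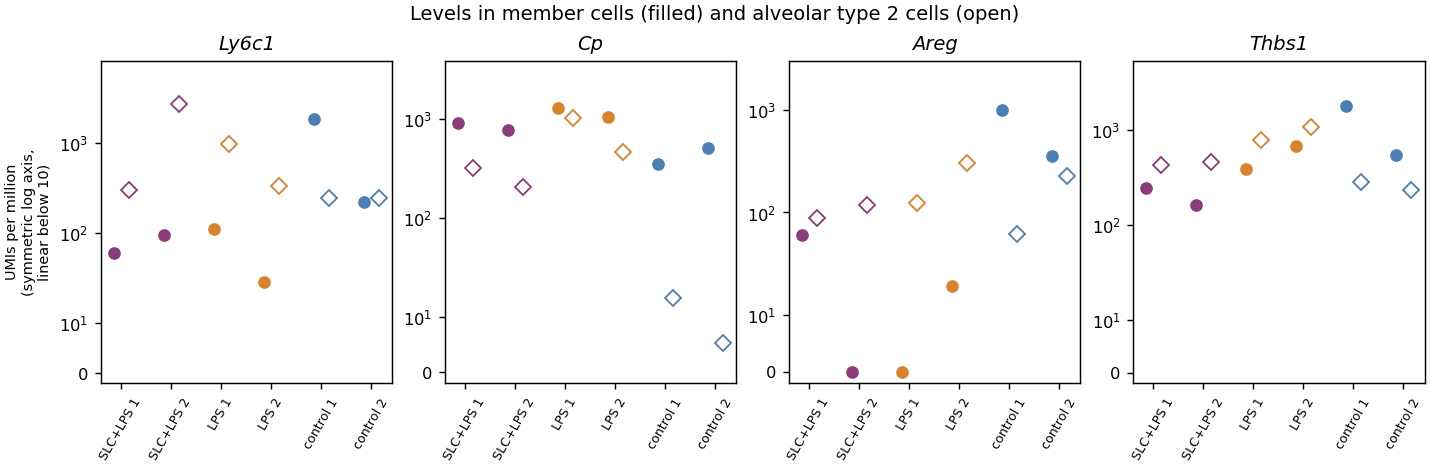
CPM of the 4 genes whose response to LPS (both LPS-given groups against control) differed between member cells (filled circles) and alveolar type 2 cells (open diamonds), by library on a symmetric log axis that is linear below 10. Member cells hold more Cp than alveolar type 2 cells in all 6 libraries, and Areg in member cells is at 0 to 60.5 CPM in the 4 libraries given LPS.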

How the data were processed

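UMI counts per gene and barcode were deposited by the authors, 1 table per mouse, made with BD Rhapsody libraries. The submitters' processing notes name the builds GRCm39 and mm39, while the aligner and its settings are not given in the sources used here. Counts were summed over member cells per library (10 to 21 cells, 16537 to 105258 UMIs) and tested with edgeR 4.0.16 in R 4.3.3 (TMM scaling, filterByExpr, robust quasi-likelihood F test, all 6 libraries in 1 fit). The 16 rule genes were left out of the adjustment. DESeq2 1.42.0 was an alternative. Cells were filtered in Python 3.11.15 with scanpy 1.11.5 and scipy 1.17.1, and plots were drawn with matplotlib 3.10.9. The code of the test was run on simulated counts with the same spread for every gene, which these sums need not have. Scrublet called 0 member cells, but it called under 0.5% of cells in 3 libraries and so did not work there. No cell was removed as a doublet, and leaving out the top 6% of scores was an alternative. Member cells within that top 6% lay mostly in control mice. They numbered 0 and 0 in SLC+LPS mice, 0 and 1 in LPS mice, and 11 and 6 in control mice.

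The named genes were those past the threshold without overlap between groups, at 100 CPM or more in the higher group. Where fewer than 3 passed, the 5 of smallest p were named, with up to 4 per gene list and the marker genes. The members and lists were chosen with earlier results of these data known. Other alternatives were RLE scaling, no low-count filter, the replicate block, each library left out, other member limits and subtraction of free RNA. The p-values cover 2 mice per group, and intervals and floors cover counting error only. RefSeq promoters matched all 3 genes whose promoters are printed. Results for some genes, 1 of them among those whose response differed from alveolar type 2 cells, are not reported here.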

Additional observations from a re-analysis of the deposited data

Results flagged for a closer look

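The response to LPS differed between member cells and alveolar type 2 cells in 10 genes for LPS against control, by edgeR's interaction term with Benjamini-Hochberg adjustment over 1663 genes. Each value is the log2 fold change in member cells minus that in alveolar type 2 cells. It was −4.95 for Cp (adjusted p = 0.00615), −4.98 for Ly6c1 (adjusted p = 0.00615), −3.88 for Gsto1 (adjusted p = 0.0133) and −6.06 for Areg (adjusted p = 0.0133). It was −4.65 for Aldh1a1 (adjusted p = 0.0149), −7.13 for the ciliated cell gene Tmem212 (adjusted p = 0.0166) and −4.87 for Cxcl17 (adjusted p = 0.0166). It was −2.83 for Thbs1 (adjusted p = 0.0254) and −2.84 for Anxa1 (adjusted p = 0.0255). For both LPS-given groups against control it was −5.35 for Ly6c1, −4.44 for Cp, −2.99 for Thbs1 and −5.12 for Areg. Against alveolar type 2 cells under 1% club genes, Ly6c1 alone passed in each contrast. The Ly6c1 call for LPS against control hung on control library 1.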

How the results depend on the processing

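Counts of genes passing moved with most settings. Libraries under 10 member cells were dropped, so some settings changed 2 things at once. Leaving out top doublet scores also dropped control 1 (6 cells left), 2% and leaving out ciliated members dropped SLC+LPS 2 (8 and 9), and 5% dropped SLC+LPS 2 (5) and LPS 1 (9), which left 1 library in each LPS-given group. Their counts cannot be put down to the member limit or the doublet scores alone. For LPS against control (3) the count was 0 with RLE size factors, the replicate block, only the groups compared, top doublet scores left out or free RNA subtracted, 5 with DESeq2, 12 with no low-count filter, 8 with members at 2%, 20 with members at 5%, 6 without members with ciliated genes, 5 with no mitochondrial limit, and 0 to 29 with 1 library left out (0 without control 1, 8 without control 2, 29 without LPS 1, 27 without LPS 2, 16 without SLC+LPS 1, 7 without SLC+LPS 2). For SLC+LPS against LPS (0) it was 2 with no filter, 7 at 5%, and 0 to 46 with 1 library left out. For SLC+LPS against control (0) it was 4 with DESeq2, 6 with no filter, 5 with only the groups compared, 2 at 2%, 6 at 5%, 2 with no mitochondrial limit, 2 without ciliated genes, 1 with the alveolar boundary cells added, and 0 to 21 with 1 library left out. For both LPS-given groups against control (3) it was 6 with DESeq2, 13 with no filter, 0 with the replicate block, top doublet scores left out or free RNA subtracted, 8 at 2%, 12 at 5%, 7 with no mitochondrial limit, 6 without ciliated genes, and 0 to 33 with 1 library left out. For the difference from alveolar type 2 cells it was 0 without the library block (no replicate block) and 1 with alveolar cells under 1% club genes in both contrasts, and 4 to 17 (LPS) and 7 to 10 (both groups) with 1 library left out.

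The differences between replicates correlated across groups at 0.067, −0.179 and −0.312 over 624 genes, which gave no sign of pairing by replicate number. Sums over so few cells of unequal depth cannot exclude such pairing. Values that changed sign were Reg3g for both groups against control without LPS 2 (−1.62; the highest was 6.73, without control 2), and with alveolar cells under 1% club genes Aldh1a1 (2.18), Gsto1 (0.923) and Retnla (5.34). The cause was not tested.

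The difference in share was −0.0351 points for LPS against control. It was −0.0108 at 2%, −0.119 at 0.5%, 0.00240 at 1000 UMIs, −0.00280 at 5%, 0.0225 with boundary cells, −0.224 with no mitochondrial limit, 0.0478 of cells with 0 Ptprc UMIs, −1.998 of epithelial cells, and −0.0566 to −0.0137 with 1 library left out. For SLC+LPS against LPS (−0.0255) it was −0.00254 with no mitochondrial limit, −0.0758 with boundary cells, −0.187 of cells with 0 Ptprc UMIs, 7.57 of epithelial cells, and −0.0470 to −0.00403 with 1 library left out. For SLC+LPS against control (−0.0607) it was −0.0362 at 2%, −0.141 at 0.5%, −0.0346 at 1000 UMIs, −0.0350 at 5%, −0.226 with no mitochondrial limit, −0.140 of cells with 0 Ptprc UMIs, 5.57 of epithelial cells, and −0.0780 to −0.0433 with 1 library left out. Gene tests at 1000 UMIs were not run, since only 2 libraries kept 10 member cells. The settings at 5%, ciliated genes, boundary cells, mitochondrial limit and alveolar cells under 1% were chosen after seeing the data.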
